A study of Mus with 10 samples.

Results

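Skeletal muscle contractile genes were followed in mouse skin as a measure of the muscle in each piece. The 38 genes were a given list of sarcomere, calcium-handling and muscle energy genes, picked by name with earlier results of these data known. All 38 were measured, among 22180 genes with a single symbol on the array, each through the probe set with the highest mean. No filter on dim signals was used, so every one of the 38 genes entered every comparison.

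The data are 10 Affymetrix arrays of skin from female BALBc mice of 7-8 weeks. The 7-day and the 3-day group, with 4 arrays each, are PUVA skin, meaning psoralen on the skin followed by UVA at 0.25 J/cm2, in 2 sessions a week over 2 weeks, and are named for a gap of 7 or 3 days between PUVA and imiquimod, a drug that causes a psoriasis-like dermatitis in mice. The control group has 2 arrays whose titles name no PUVA, and the protocol text, which is the same for every sample, gives controls no gap. Psoralen is a plant compound that crosslinks DNA once UVA light activates it. It is not stated if imiquimod had reached the skin that was arrayed, in any of the 3 groups, nor if each array is a separate animal, so the p-values below measure the spread between these samples and that spread may be technical.

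Mouse skin carries a thin sheet of striated muscle, the panniculus carnosus, below the dermis and its fat. Striated muscle shortens when myosin of the thick filaments pulls on actin of the thin filaments, after calcium leaves an internal store and binds the troponin complex. Fast muscle fibres use the myosin heavy chains of Myh1, Myh2 and Myh4, while slow fibres use that of Myh7. In bulk samples fewer muscle fibres cannot be told apart from less muscle RNA per fibre.

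The labelled tissue was checked against markers of skin and muscle. Keratinocyte markers (10 of 11 measured) had mean log2 values of 11.01 to 11.22 in the 7-day group, 10.88 to 11.08 in the 3-day group and 11.01 to 11.13 in the controls. The 38 muscle genes had mean log2 values of 10.61 to 10.84 in the 7-day group, 10.31 to 10.89 in the 3-day group and 10.56 to 10.79 in the controls, so muscle transcripts were plainly present on all 10 arrays. Array medians over all probe sets lay between 5.83 and 5.86 and correlations between arrays between 0.9857 and 0.9934. With 2 controls the precision of any comparison with control is low.

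The muscle genes moved together from piece to piece more than from group to group. With each gene centred on its own mean over the 10 arrays, the mean of the 38 genes on the 4 arrays of the 7-day group was 0.18, 0.11, 0.093 and -0.039. On the 4 arrays of the 3-day group it was 0.24, -0.29, -0.34 and -0.0038, and on the 2 control arrays 0.14 and -0.088. The highest and the lowest value of all 10 arrays were thus both in the 3-day group, at replicates 1 and 3, and lay 0.58 log2 apart, a 1.49-fold difference. The 7-day arrays spanned 0.22 log2 and the 2 controls differed by 0.23. Group means were 10.74 ± 0.093 (SD, n = 4) in the 7-day group, 10.55 ± 0.27 (SD, n = 4) in the 3-day group and 10.68 ± 0.16 (SD, n = 2) in the controls, and the 3 ranges overlapped.

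**Figure D1:**
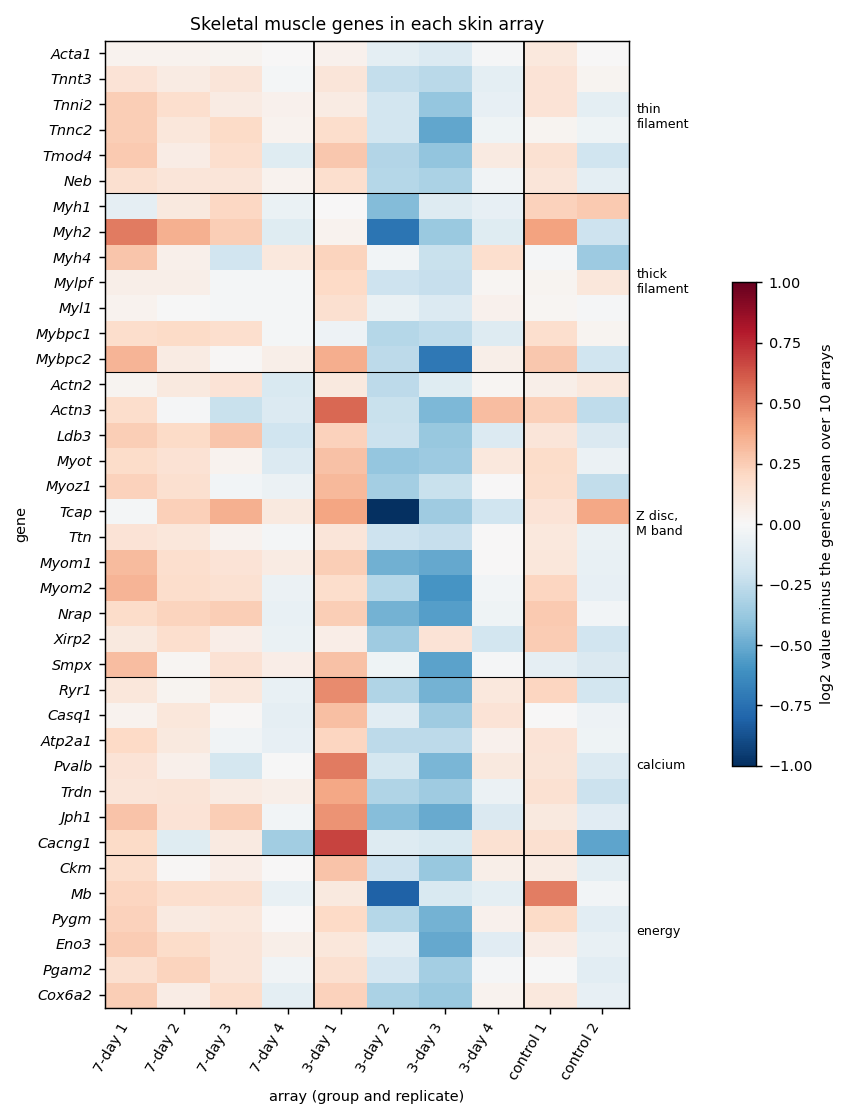
Each row is 1 of the 38 muscle genes, grouped by role, and each column 1 of the 10 arrays. Colour is the log2 value minus the gene's mean over the arrays. Replicates 2 and 3 of the 3-day group are low and replicate 1 of that group is high in most rows, while the 7-day and control columns are paler.

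Most genes shared the order of the arrays, above all in the 3-day group. In the 3-day group replicate 1 was the highest of the 4 arrays for 37 of 38 genes, Xirp2 being the exception, and the lowest was replicate 3 for 29 genes and replicate 2 for the other 9. Replicates 2 and 3 of the 3-day group were the 2 lowest of all 10 arrays for 29 of the 38 genes. In the 7-day group replicate 1 was highest for 27 genes and replicate 4 lowest for 29. Control replicate 1 lay above control replicate 2 for 34 genes, and below it for Myh1, Mylpf, Actn2 and Tcap.

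The common pattern held most of the variation inside groups. After group means were taken off, 1 component carried 79.5% of the within-group variance of the 38 genes and the next 9.91%. The correlation of each gene with the mean of the other 37 members over the 10 arrays, as a description, had a median of 0.93, and was above 0.9 for 24 genes, between 0.7 and 0.9 for 11 and below 0.7 for 3. The arrays share the authors' normalization, so these points are not free of common technical variation. The SD was larger in the 3-day group than in the 7-day group for all 38 genes, against 55.9% of all genes. As the genes vary together from array to array, the 38 are not 38 separate observations. The median SD of the 38 was 0.13 in the 7-day group, 0.29 in the 3-day group and 0.16 in the controls, while over all genes it was 0.12, 0.13 and 0.095 in the same groups.

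**Figure D2:**
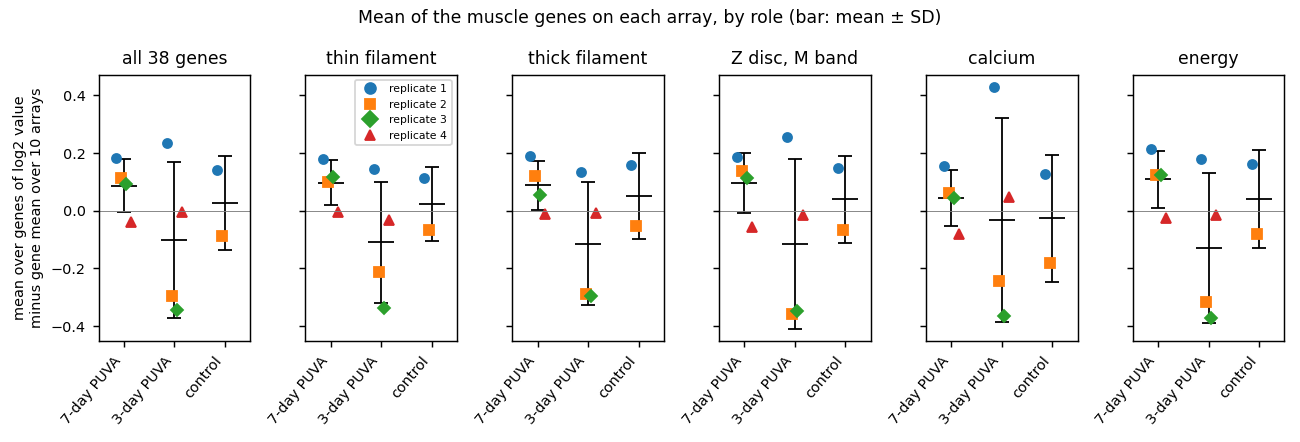
Each panel plots, for the 38 muscle genes or 1 role, the mean of the centred log2 values on each array (points, shaped and coloured by replicate number) with the group mean and SD (black). In all 6 panels the 3-day group spans the widest range and the 3 groups overlap.

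Thin filament genes, 6 in the list, encode skeletal actin (Acta1) and the subunits (Tnnt3, Tnni2, Tnnc2) of the fast troponin complex, which senses calcium. They also encode the filament-capping tropomodulin Tmod4 and the giant protein nebulin (Neb). Tnnt3 had log2 values of 12.11, 12.06, 12.10 and 11.96 in the 7-day group, 12.10, 11.74, 11.71 and 11.88 in the 3-day group and 12.11 and 12.01 in the controls. Replicate 1 of the 3-day group lay among the 7-day arrays and the other 3 lay below them all. Acta1 had 12.98, 12.98, 12.98 and 12.95 in the 7-day group, 12.99, 12.85, 12.81 and 12.94 in the 3-day group and 13.06 and 12.96 in the controls. Its whole range of 0.25 was the narrowest of the list, with the same order of the 3-day arrays as Tnnt3. The highest probe set on each array stood at 13.37 to 13.46, so Acta1 lay near the top of the scale. Myh4, at up to 13.01, had a range of 0.64, and whether signal height narrowed the range of Acta1 was not tested.

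The thick filament list holds the myosin heavy and light chains and the myosin-binding proteins. The genes of the fast myosin heavy chains Myh2, Myh1 and Myh4 lie next to each other on chromosome 11, between Myh3 and Myh8, in the RefSeq gene table. Myh4, the chain of the fastest fibres, had log2 values of 13.01, 12.78, 12.54 and 12.83 in the 7-day group, 12.95, 12.70, 12.51 and 12.90 in the 3-day group and 12.72 and 12.37 in the controls. Its 7-day and 3-day arrays overlapped almost fully, and the lowest array was control replicate 2. Myh1, the chain of type IIX fibres, had 11.90, 12.09, 12.19 and 11.93 in the 7-day group, 11.998, 11.55, 11.86 and 11.91 in the 3-day group and 12.22 and 12.26 in the controls. Both controls lay above all 8 PUVA arrays for this gene. Myh2, the chain of type IIA fibres, had 10.83, 10.67, 10.55 and 10.19 in the 7-day group, 10.34, 9.58, 9.94 and 10.19 in the 3-day group and 10.71 and 10.11 in the controls. Myh2 varied most of the 3 chains, with a range of 1.25, and the 3 groups overlapped. The 3 chains are close relatives, and whether their probe sets tell them apart was not tested.

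Among the other thick filament genes, Mylpf, a light chain of fast myosin, had log2 values of 10.69, 10.70, 10.61 and 10.62 in the 7-day group, 10.83, 10.43, 10.41 and 10.65 in the 3-day group and 10.66 and 10.75 in the controls. Myl1, which encodes alkali light chains, had 11.61, 11.57, 11.56 and 11.56 in the 7-day group, 11.74, 11.51, 11.44 and 11.62 in the 3-day group and 11.60 and 11.57 in the controls. The 3 group means of Myl1 were all 11.58. Mybpc1, a myosin-binding protein, had 11.61, 11.63, 11.61 and 11.42 in the 7-day group, 11.39, 11.15, 11.19 and 11.31 in the 3-day group and 11.61 and 11.47 in the controls. It was the 1 gene of the 38 for which no 3-day array reached any 7-day array.

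The Z disc anchors thin filaments and the M band links thick filaments. Ttn encodes titin, the spring that spans from one to the other, and had log2 values of 12.56, 12.54, 12.46 and 12.41 in the 7-day group, 12.55, 12.22, 12.19 and 12.43 in the 3-day group and 12.53 and 12.36 in the controls. Actn3, the fast-fibre actinin of the Z disc, had 11.42, 11.23, 11.02 and 11.11 in the 7-day group, 11.81, 11.02, 10.79 and 11.55 in the 3-day group and 11.48 and 10.99 in the controls. For Actn3 the 3-day group enclosed all other arrays. Tcap, the titin cap, had 9.59, 9.84, 9.97 and 9.70 in the 7-day group, 10.01, 8.58, 9.25 and 9.41 in the 3-day group and 9.75 and 9.99 in the controls. The residual SD of Tcap, 0.40, was the largest of the 38, and replicate 2 of the 3-day group was the lowest of the 10 arrays. Xirp2, an actin-binding protein with Xin repeats, had 11.09, 11.16, 11.06 and 10.93 in the 7-day group, 11.06, 10.64, 11.13 and 10.81 in the 3-day group and 11.25 and 10.80 in the controls. Smpx, a small stretch-related muscle protein on the X chromosome, had 8.17, 7.88, 8.01 and 7.93 in the 7-day group, 8.16, 7.83, 7.33 and 7.85 in the 3-day group and 7.78 and 7.72 in the controls. All 4 of its 7-day arrays lay above both controls.

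Calcium-handling genes varied most by role in the 3-day group. Ryr1, the channel that releases calcium from the store, had log2 values of 10.79, 10.70, 10.78 and 10.60 in the 7-day group, 11.14, 10.37, 10.20 and 10.78 in the 3-day group and 10.89 and 10.49 in the controls. Atp2a1, the fast-fibre pump that returns calcium, had 12.91, 12.81, 12.67 and 12.62 in the 7-day group, 12.92, 12.45, 12.44 and 12.75 in the 3-day group and 12.84 and 12.66 in the controls. Pvalb, parvalbumin, which soaks up calcium in fast fibres, had 10.02, 9.93, 9.70 and 9.88 in the 7-day group, 10.40, 9.71, 9.42 and 9.98 in the 3-day group and 10.01 and 9.74 in the controls. The group means of Pvalb were 9.88 ± 0.13 in the 7-day group, 9.88 ± 0.42 in the 3-day group and 9.88 ± 0.19 in the controls (SD, n = 4, 4 and 2), with the 3-day pieces on both sides of the rest. Cacng1, a subunit of the voltage sensor, had 7.81, 7.495, 7.71 and 7.27 in the 7-day group, 8.29, 7.49, 7.46 and 7.77 in the 3-day group and 7.78 and 7.08 in the controls. The centred mean of the 7 calcium genes in the 3-day group was 0.43, -0.24, -0.37 and 0.048, an SD of 0.35, against 0.097 in the 7-day group and 0.22 in the controls.

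For 5 of the 6 energy genes replicate 3 was the lowest array of the 3-day group, and for Mb it was replicate 2. Ckm, the muscle creatine kinase, had log2 values of 11.69, 11.53, 11.57 and 11.51 in the 7-day group, 11.80, 11.30, 11.13 and 11.57 in the 3-day group and 11.59 and 11.41 in the controls. Mb, myoglobin, the oxygen store of oxidative fibres, had 9.0, 8.95, 8.95 and 8.71 in the 7-day group, 8.88, 7.98, 8.63 and 8.68 in the 3-day group and 9.30 and 8.76 in the controls. Pygm, the glycogen phosphorylase of muscle, ranged over 11.87 to 12.09 in the 7-day group, 11.39 to 12.06 in the 3-day group and 11.75 to 12.05 in the controls, and Eno3, the muscle enolase, over 11.89 to 12.09, 11.32 to 11.95 and 11.76 to 11.91 in the same groups.

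A second, smaller pattern weighed most on Tcap, Mb, Xirp2 and Myh1, a cut chosen here after their values were seen. These 4 had the largest positive weights on the second component (0.51, 0.39, 0.30 and 0.26), with Myh2 close behind at 0.23. The genes with the largest negative weights were Smpx, Mybpc2 and Eno3 (-0.26, -0.26 and -0.20). Replicates 2 and 3 of the 3-day group, alike in the mean of the 38 genes, parted on this pattern. Replicate 3 lay below replicate 2 for 29 of the 38 genes, yet above it by 0.67 log2 for Tcap, 0.65 for Mb and 0.49 for Xirp2. Myh2 and Myh1 were higher in replicate 3 too, by 0.36 and 0.31. Outside the 38 genes, those with the largest differences between these 2 arrays were picked from further lists of muscle genes. Among them replicate 3 lay above replicate 2 by 1.03 for Lmod2, which nucleates thin filaments, and 0.77 for Hspb7, a small muscle heat shock protein. The difference was 0.68 for Ucp3, of the energy list, and 0.53 for Csrp3, a Z disc LIM protein. Replicate 3 lay below by 0.87 for Myf6, a myogenic transcription factor, and by 0.77 for Sln, sarcolipin, which inhibits the calcium pump. These are differences between 2 arrays, with no replicate check. The second component was fitted on the same arrays, so the differences are no separate support for it.

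**Figure D3:**
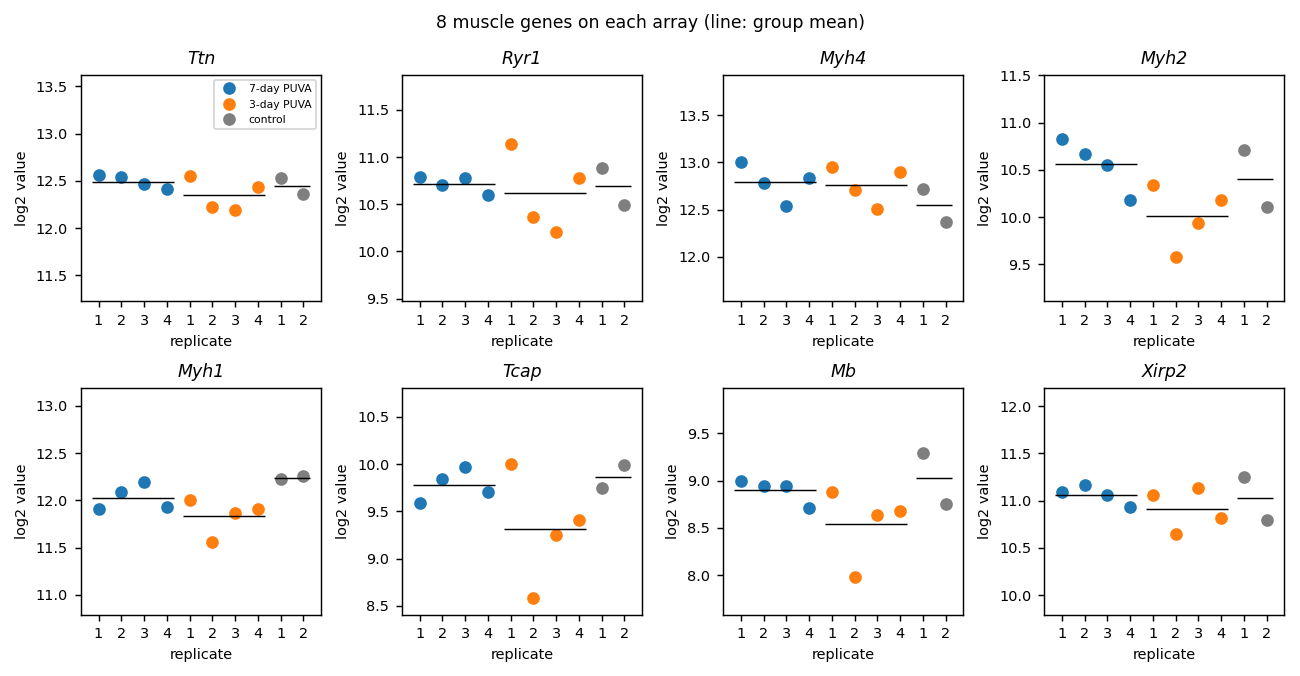
Log2 values of 8 muscle genes on each of the 10 arrays, with a line at each group mean and all vertical axes of equal span. Ttn and Ryr1 follow the common order, with replicates 2 and 3 of the 3-day group low, Myh1 is highest in both controls, and Tcap and Mb are lowest in replicate 2 of the 3-day group.

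The 7-day group was compared with control skin to ask whether muscle genes differed after the longer gap. The test was limma on the 3 group means, using the 10 arrays at once, with Benjamini-Hochberg adjustment over 22180 genes and a threshold of 0.05. None of the 38 genes passed (lowest adjusted p 0.915), and 0% of all genes passed. At an unadjusted p under 0.05 there were 0 higher and 0 lower among the 38, against 3.21% and 2.68% of all genes. Arrays did not overlap for 2 genes that were higher, Tnnc2 and Smpx (8.56% of all genes), and for 1 that was lower, Myh1 (5.85%). The log2 change was above 0 for 27 genes (55% of all genes), below 0 for 10 (45%) and 0 for Atp2a1. Its median over the 38 was 0.069, against 0.015 over all genes. Without control replicate 2 the median turned to -0.050, and without control replicate 1 it was 0.20. It was 0.027 without 7-day replicate 1. The count above 0 was 11 of 38 without control replicate 2 and 34 without control replicate 1. The largest positive changes were Smpx at 0.25 ± 0.18 (SE) and Myh4 at 0.25 ± 0.16, and the largest negative ones Myh1 at -0.21 ± 0.13 and Mb at -0.13 ± 0.23, with limma adjusted p of 0.915 to 0.975.

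The 3-day group was compared with the same 2 control arrays, so the 2 comparisons with control are not independent of each other. None of the 38 genes passed in limma (lowest adjusted p 0.375), where 0.00451% of all genes passed. At an unadjusted p under 0.05 there were 2 lower, Myh1 and Mybpc1, against 4.07% of all genes, and 0 higher, against 5.67%. Myh1 had a log2 change of -0.41 ± 0.13 (SE) and Mybpc1 -0.28 ± 0.099, with limma adjusted p of 0.375 and 0.437. These were also the 2 genes whose 4 arrays all lay below both controls, against 7.89% of all genes, and 0 genes lay above both controls on all 4 arrays, against 9.52%. The log2 change was below 0 for 32 of 38 genes (49.4% of all genes) and above 0 for 6 (50.6%), with a median of -0.12, against 0.0023 over all genes. The SD among the 3-day arrays in the mean of the 38 genes, 0.27, was larger than this shift. The median was -0.023 without control replicate 1 and -0.24 without control replicate 2. Leaving out 3-day replicates moved it too, to -0.23 without replicate 1, -0.065 without replicate 2 and -0.042 without replicate 3. The count below 0 was 22 of 38 without control replicate 1, 24 without 3-day replicate 3 and 36 without 3-day replicate 1, and the 2 genes lower at an unadjusted p under 0.05 became 8 without 3-day replicate 1, 4 without control replicate 2, and 1 lower and 1 higher without control replicate 1. The largest negative changes were Tcap at -0.56 ± 0.29 (SE) and Mb at -0.48 ± 0.23, and the largest positive ones Cacng1 at 0.32 ± 0.26 and Myh4 at 0.22 ± 0.16.

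The 7-day group was then set against the 3-day group. None of the 38 genes passed in limma (lowest adjusted p 0.301, for Mybpc1), where 0.00902% of all genes passed. At an unadjusted p under 0.05 there were 6 higher (Tnni2, Tnnc2, Myh2, Mybpc1, Myom1 and Eno3), against 5.33% of all genes, and 0 lower, against 4.43%. The 6 of 38 include genes of the thin filament, thick filament, M band and energy roles. Mybpc1 had a log2 difference of 0.31 ± 0.081 (SE), Myh2 0.55 ± 0.20 with a limma adjusted p of 0.446, and Eno3 0.31 ± 0.12 with 0.465. The arrays of the 2 groups did not overlap for 1 gene, Mybpc1, against 2.95% of all genes, and for 0 in the other direction, against 2.28%. The log2 difference was above 0 for 35 of 38 genes (53.2% of all genes) and below 0 for Cacng1, Actn3 and Myl1 (46.8% of all genes), and its median was 0.20, against 0.0095 over all genes. Since the genes vary together from piece to piece, the 35 are not 35 separate observations. Replicates 2 and 3 of the 3-day group each lay below every 7-day array for 35 genes, replicate 4 lay above the lowest 7-day array for 23 genes and replicate 1 for 37. Replicate 1 exceeded all 4 of the 7-day arrays for 18 genes. The median was 0.12 without 3-day replicate 2, 0.11 without 3-day replicate 3 and 0.29 without 3-day replicate 1. Leaving out any 1 array kept between 31 and 37 genes above 0. The 6 genes at an unadjusted p under 0.05 became 22 without 3-day replicate 1 and 10 without 7-day replicate 4. They became 1 without 7-day replicate 1, 2 without 7-day replicate 2 or 3-day replicate 3, 3 without 3-day replicate 2, and 4 without 7-day replicate 3 or either control.

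**Figure D4:**
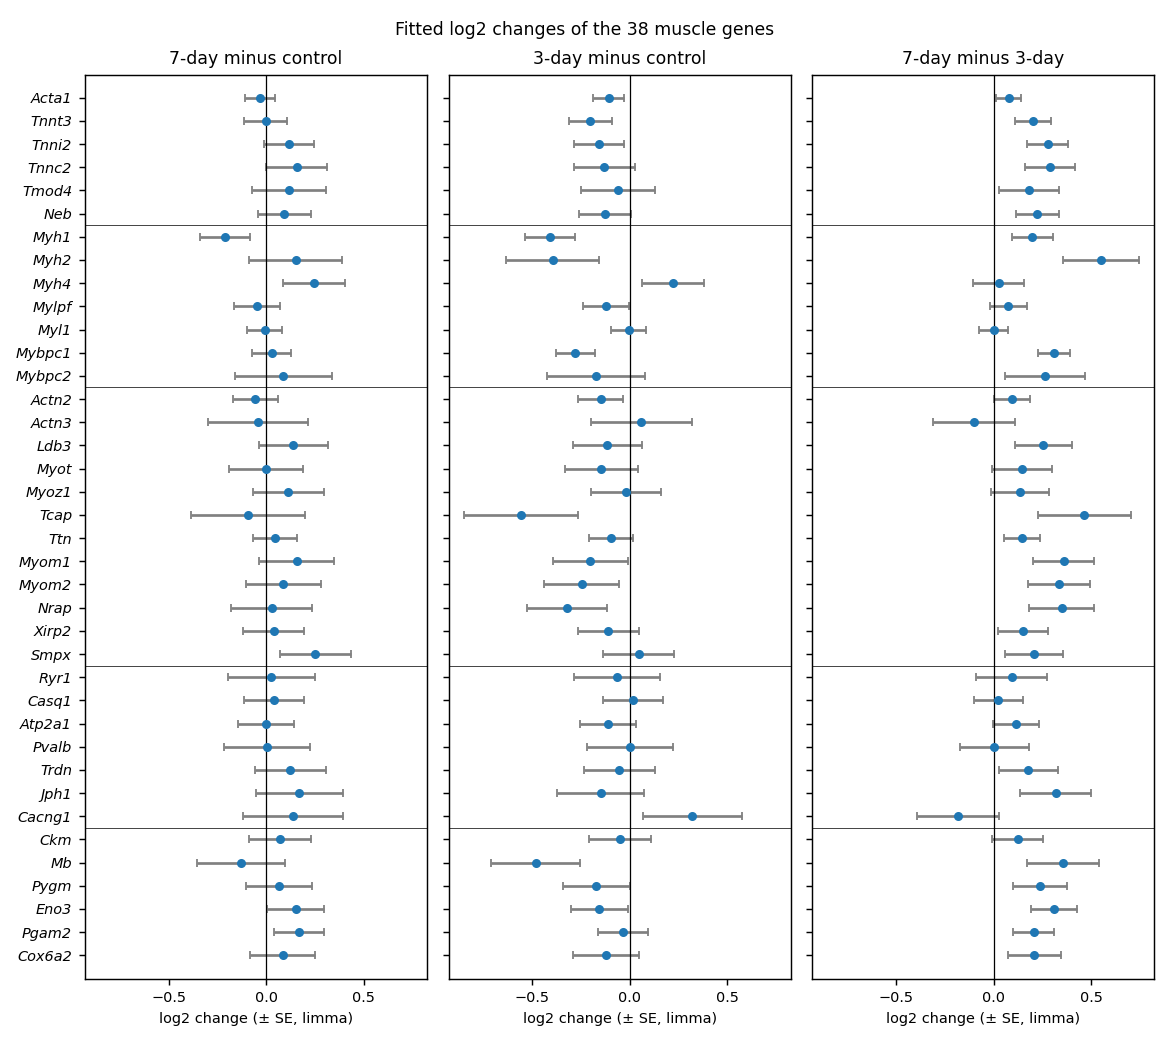
Fitted log2 changes of the 38 muscle genes (points) with limma standard errors (bars), in the 7-day group minus control, the 3-day group minus control and the 7-day minus the 3-day group. Most points lie left of 0 in the middle panel and right of 0 in the last, and none passed the adjusted threshold in any panel.

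By role, the median log2 difference of the 7-day against the 3-day group was 0.21 for the thin filament, 0.20 for the thick filament, 0.18 for the Z disc and M band, 0.093 for calcium handling and 0.22 for energy. All 6 thin filament and all 6 energy genes lay above 0, with 6 of 7, 11 of 12 and 6 of 7 in the thick filament, Z disc and calcium roles. For the 3-day group against control the role medians were -0.13, -0.17, -0.13, -0.053 and -0.14 in the same order. Whether roles differ from each other was not tested.

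Genes not among the 38 were read from muscle lists chosen by function, and not all of these genes are made by muscle alone. The sarcomere list includes Trim63, Fbxo32 and the cardiac marker Tnnt2, and the energy list includes Gapdh, Pgk1, Pkm and Ldha. Of 24 measured genes of the sarcomere list, 0 passed in any of the 3 comparisons. In the 7-day against the 3-day group 23 lay above 0 (53.2% of all genes), with a median of 0.19. There 3 were higher at an unadjusted p under 0.05 (5.33% of all genes) and 0 lower (4.43%). In the 3-day group against control 4 lay below both controls on all 4 arrays (7.89% of all genes) and 0 above both (9.52%). Their list mean in the 3-day group was 9.29, 8.73, 8.82 and 8.98, the same split of replicate 1 from replicates 2 and 3. Of 22 measured energy genes 20 lay above 0 in the 7-day against the 3-day group (53.2% of all genes), with a median of 0.18. Fbp2, the muscle fructose bisphosphatase, had the largest difference of them, 0.56, with a limma adjusted p of 0.235. The 16 other calcium-handling genes had a median of 0.079 in that comparison, with 10 above 0, against 53.2% of all genes.

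Slow-fibre genes had medians near 0. The 10 slow-fibre genes had medians of 0.041 in the 7-day group against control, 0.016 in the 3-day group against control and 0.0044 in the 7-day against the 3-day group, with 0 past the adjusted threshold in limma and 0 at an unadjusted p under 0.05 in each. Myh7, the slow myosin heavy chain, stayed between 4.49 and 5.06 on all 10 arrays, below the array medians over genes of 6.40 to 6.50, as did the slow troponins Tnnt1 at 5.16 to 5.85 and Tnni1 at 4.84 to 5.50 and the slow light chain Myl2 at 4.73 to 5.10. Other genes of this list lay higher, with Atp2a2, a calcium pump that many tissues make, at 10.66 to 10.92, Tpm3 at 9.23 to 9.86, Myoz2 at 7.58 to 8.11 and Casq2 at 6.62 to 7.30. Cardiac markers had list means of 5.27 to 5.33 in the 7-day group, 5.22 to 5.34 in the 3-day group and 5.22 to 5.37 in the controls.

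Genes of muscle repair and of the nerve contact were also read. The embryonic and neonatal myosins Myh3 and Myh8 stayed at 2.77 to 3.58 and 5.58 to 6.20. The 12 genes of regeneration and satellite cells had a median log2 change of 0.075 in the 7-day group against control and -0.011 in the 3-day group against control. In the 3-day group against control 1 of the 12, Myf5, was higher at an unadjusted p under 0.05 (5.67% of all genes), at 0.36 with a limma adjusted p of 0.494. Myf5 lay at 5.32 to 6.19, below the array medians over genes of 6.40 to 6.50. In the 7-day against the 3-day group the median of the 12 was 0.024, with 8 above 0 (53.2% of all genes). There 1 was higher at an unadjusted p under 0.05 (5.33%) and 0 lower (4.43%). This was Mstn, at 0.44 with a limma adjusted p of 0.508. The 11 measured genes of the neuromuscular junction and of denervation had a median of 0.024 in the 7-day group against control and 0.11 in the 3-day group against control. Chrna1, the alpha subunit of the muscle acetylcholine receptor, had 0.31 in the 3-day group with a limma adjusted p of 0.433, and its 4 arrays, at 6.45 to 6.67, lay above both controls, at 6.25 and 6.23. The arrays of Chrne and Musk, a receptor subunit and a kinase of the junction, also lay above both controls, which makes 3 of 11 (9.52% of all genes). For Chrne the lowest 3-day array was at 5.90, against 5.88 in the higher control. All 4 of its 7-day arrays lay above both controls too, at a change of 0.17 against 0.15 in the 3-day group. It was the 1 of 11 that did so in the 7-day group (8.56% of all genes), and 1 lay below both (5.85%). Chrne stayed below the array medians over genes, at 5.82 to 6.20, and Chrna1 and Musk lay near or below them. In the 7-day against the 3-day group the median of the 11 was -0.091, with 7 below 0. At an unadjusted p under 0.05 there were 2 lower, Chrnb1 and Ncam1 (4.43% of all genes), and 1 higher, Lrp4 (5.33%), with limma adjusted p of 0.446 to 0.487.

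The genes outside the 38 whose values ran closest to the muscle mean, after group means were taken off, were sought over all other genes. By Pearson correlation over the 10 arrays the 12 closest were Phtf2 and Art1 (0.993 each), Synm (0.988), Rbfox1, Pde4dip, Zfp879, Asb12, Clcn1, Trim54, Hjv, Cacna1s and 2310040G24Rik (0.976). They were picked as the highest of all and so are a description. Among them Art1, Clcn1 and Cacna1s were in the further muscle lists, as an ADP-ribosyltransferase, the muscle chloride channel and the voltage sensor.

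Markers of other cells in the skin were set beside the muscle genes. The fibroblast markers, 7 of 8 measured, had list means of 11.05 to 11.50 in the 7-day group, 11.49 to 12.01 in the 3-day group and 11.02 to 11.55 in the controls. All 7 were lower in the 7-day than in the 3-day group, 3 of them at an unadjusted p under 0.05 (4.43% of all genes) and 0 after adjustment in limma. These 3 were the collagen genes Col1a1, Col1a2 and Col3a1, at -0.90, -0.76 and -0.87. The others were smaller, with Pdgfra at -0.34, Lum at -0.14, Dpt at -0.11 and Dcn at -0.031. In the 3-day group the fibroblast mean was 11.49 in replicate 1, where muscle was highest, 12.01 in replicate 2 and 11.78 in replicate 3, where muscle was lowest, and 11.75 in replicate 4. Replicate 1 was the lowest of that group for 5 of the 7 markers. It was the highest for 1, Dpt, at 12.26 against 11.97 in replicate 3. Adipocyte markers, 9 of 10 measured, had list means of 9.56 to 9.81 in the 7-day group, 9.37 to 9.70 in the 3-day group and 9.59 to 9.79 in the controls, and replicate 3 was the highest and replicate 2 the lowest of the 3-day group. Replicate 2 of the 3-day group was the lowest of all 10 arrays for adipocyte and for keratinocyte markers, with centred means of -0.26 and -0.18. In the 7-day against the 3-day group 8 of 9 adipocyte markers (median 0.084) and 9 of 10 keratinocyte markers (median 0.12) lay above 0, the direction of most of the 38 muscle genes. At an unadjusted p under 0.05, 2 of the 9 were higher, Retn (0.58) and Pparg (0.24), against 5.33% of all genes. Of the 10 keratinocyte markers 1 was, Ivl (0.42). The arrays of the 2 groups did not overlap for these genes (2.95% of all genes). Their limma adjusted p was 0.230 to 0.359. Smooth muscle markers, with Acta2 and Myh11 among 10, had list means of 8.83 to 9.05 in the 7-day group, 8.53 to 9.17 in the 3-day group and 8.89 to 9.0 in the controls, and there replicate 1 of the 3-day group was the lowest. Desmin is in this list and is also made by skeletal muscle. In the 3-day group against control all 7 fibroblast markers lay above 0 (50.6% of all genes). At an unadjusted p under 0.05, 4 of them were higher (5.67%). All 9 adipocyte markers lay below 0 there (49.4% of all genes), and 2 were lower at an unadjusted p under 0.05 (4.07%). Of the keratinocyte markers 8 of 10 lay below 0, and of the smooth muscle markers 8 of 10. None of these markers passed after adjustment in limma. The part of these other tissues in the differences of the muscle genes was not tested.

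**Figure D5:**
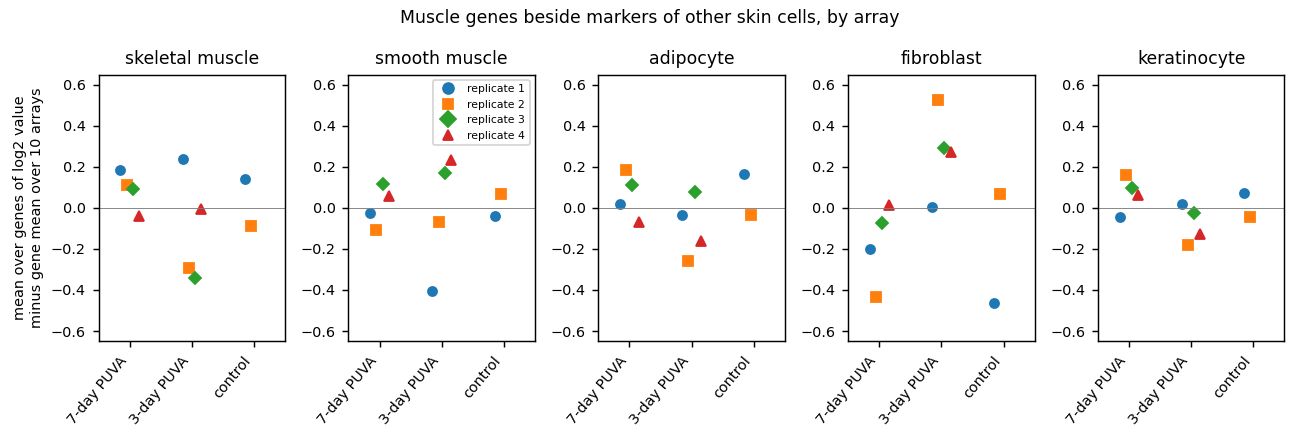
Mean centred log2 value on each array for the 38 skeletal muscle genes and for markers of smooth muscle, adipocytes, fibroblasts and keratinocytes, with points shaped and coloured by replicate number. In the 3-day group replicate 1 is highest for skeletal muscle and lowest for smooth muscle and fibroblasts, and replicates 2 and 3 are lowest for skeletal muscle.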

How the data were processed

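Extracted RNA (miRNeasy, with DNase) was prepared for hybridization by the WT PLUS protocol, per the labels. The authors' table has 41345 rows, 1 for each probe set, and its deposited values were taken as log2 from their range. The log base, the summarization and the normalization are not stated by any source at hand. Gene names came from the platform annotation, which gives 23521 probe sets 1 symbol and 1814 several, and leaves the rest unnamed here. Where a gene had several probe sets (1082 genes, among them Ckm, Ryr1 and Xirp2) the one with the highest mean was used. The model was limma 3.58.1 (R 4.3.3), a mean per group with moderated two-sided tests, 7 residual and 3.51 prior degrees of freedom, and 1 spread per gene shared by all groups. Arrays carry no read depth.

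The members and lists were chosen with earlier results of these data known. Values on every array are given for 14 members set by role, the 2 largest positive and negative changes in each comparison, and the 3 members with the largest and the 3 with the smallest spread. Replicate numbers follow sample order and pair nothing. The fit was tested on simulated data, with genes drawn independently and shifts larger than any change of the members. That test does not show what power the comparisons had for the members. The alternatives left out the lowest 30% of genes, averaged probe sets, applied quantile normalization or median centring, changed the moderation, weighted arrays, used only the arrays compared, or dropped 1 array.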

Additional observations from a re-analysis of the deposited data

Results flagged for a closer look

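In 110 sets of 4 arrays (the 38 genes, their mean and the role and marker list means, in each PUVA group), 1 array stood apart from the other 3 by Dixon's criterion. This was Mybpc1 in replicate 4 of the 7-day group, at 11.42 against 11.61 to 11.63 on the other 3 arrays. Chance alone sets apart about 1 in 20 such groups. The mean of the 38 genes was not set apart in either PUVA group, and no muscle gene differed between the 7-day and the 3-day group past the adjusted threshold.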

How the results depend on the processing

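The count of muscle genes past the adjusted threshold was 0 in all 3 comparisons under all 7 processing alternatives and without each array in turn, with smallest adjusted p in limma of 0.136 (7-day against 3-day group without 3-day replicate 1) to 0.9999 over these fits. The median log2 change of the 38 genes was 0.063 to 0.080 in the 7-day group against control, -0.13 to -0.11 in the 3-day group against control and 0.18 to 0.21 in the 7-day against the 3-day group under the processing alternatives. Leaving out 1 array gave -0.050 to 0.20, -0.24 to -0.023 and 0.11 to 0.29. The array means of the muscle genes moved by less than the SD of their group under the other normalizations. No paired analysis was possible because the columns carry no replicate numbers that pair samples. Of 779 recomputed changes of the 19 members named in full, none of them past the threshold, 57 changed sign, 48 of them when 1 array was left out. Their ranges without 1 array follow. In the 7-day group against control these were Acta1 (-0.083 to 0.019), Tnnt3 (-0.056 to 0.052), Myh2 (-0.15 to 0.45), Mybpc1 (-0.043 to 0.099), Ttn (-0.040 to 0.13), Xirp2 (-0.18 to 0.26), Ryr1 (-0.17 to 0.22), Pvalb (-0.13 to 0.14), Ckm (-0.016 to 0.16), Mb (-0.40 to 0.14), Cacng1 (-0.21 to 0.48), Tcap (-0.22 to 0.030), Actn3 (-0.29 to 0.20), Myl1 (-0.021 to 0.0071). In the 3-day group against control these were Xirp2 (-0.34 to 0.11), Ryr1 (-0.26 to 0.13), Pvalb (-0.17 to 0.15), Ckm (-0.17 to 0.056), Smpx (-0.078 to 0.20), Cacng1 (-0.027 to 0.67), Actn3 (-0.19 to 0.30), Myl1 (-0.060 to 0.038). In the 7-day against the 3-day group these were Myh4 (-0.062 to 0.11), Ryr1 (-0.047 to 0.27), Pvalb (-0.15 to 0.18), Actn3 (-0.27 to 0.072), Myl1 (-0.045 to 0.053). By processing, Xirp2 turned to -0.10 with the mean of its probe sets and Pvalb to -3.5e-05 with quantile normalization, Tnnt3 to 0.0088 and Myl1 to 0.0041 with median centring (7-day against control). Myl1 turned to 0.0031 with array weights (3-day against control). In the 7-day against the 3-day group Pvalb turned to -0.0093 with quantile normalization and -0.023 with array weights, Myl1 to 0.0078 with median centring and Myh4 to -0.014 with array weights. The cause was not tested. The second probe sets of Ckm, Ryr1 and Xirp2 had mean log2 values of 6.32, 6.80 and 4.55, and that of Xirp2 was near or below the array's lower quartile, 4.49 to 4.57 over genes. Signal over background was not analysed here. The counts of genes above and below 0, and at an unadjusted p under 0.05, with 1 array left out were chosen after seeing the data.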
